A study of Mus musculus with 27 samples.

Results

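The 10 genes described here encode the ATPases and core proteins of SWI/SNF, a family of chromatin remodeling complexes: Smarca4, Smarca2, Smarcb1, Smarcc1, Smarcc2, Smarcd1, Smarcd2, Smarcd3, Smarce1 and Actl6a. They were listed by name, with earlier results of these data known, and are 10 of the 33924 gene symbols in the deposited count table. The question was whether the remaining subunits differ in RNA level after a subunit is lost, and whether they differ under an inhibitor. The mouse thyroid tumor lines carry Braf(V600E) in every case, and the knockout (KO) lines carry in addition a KO of Arid1a, Arid2 or Smarcb1. Each of the 4 genotypes has 3 lines, and each line gave 2 RNA-seq libraries. One was treated with CH5126766 (CKI), which inhibits RAF and MEK, at 300 nM for 8 days, and the other with vehicle (40% Trappsol). The labels do not settle whether the vehicle arm also received bovine TSH, so CKI and TSH cannot be told apart. A further 3 untreated libraries are marked wildtype. The lines were grown out of dissected tumors; how the alleles were deleted, and in which cells, is not given in the sources used here. Nothing says whether lines of a genotype came from separate animals, so p-values speak of lines and not of animals. Unless the line was entered in the fit, the 2 libraries of a line were taken as independent.

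SWI/SNF complexes use the energy of ATP to slide or evict nucleosomes. Each complex holds a single ATPase, either SMARCA4 (BRG1) or its paralog SMARCA2 (BRM), around a core of SMARCC, SMARCD, SMARCB1 and SMARCE1 proteins, and ACTL6A binds the ATPase together with actin. Signature subunits such as ARID1A and ARID2 then set the subtype of the complex, and loss of SWI/SNF subunits is known from advanced thyroid cancer. Because paralogs occupy the same place in the complex, a rise of one paralog when the other is missing is a known form of compensation.

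Promoters of 9 of the 10 members were matched in RefSeq (GRCm38.p6), and those of the ATPase and SMARCC pairs and of Actl6a are shown because the results turn on these genes. Each runs from 250 bases before to 50 bases after the annotated start, in the direction of the gene. They lie at chr9:21615919-21616218 (plus strand) for Smarca4, chr19:26604910-26605209 (plus strand) for Smarca2, chr9:110131774-110132073 (plus strand) for Smarcc1, chr10:128458986-128459285 (plus strand) for Smarcc2 and chr3:32708296-32708595 (plus strand) for Actl6a. Capitals mark matches to the ETS letters CCGGAAG or the AP-1 letters TGANTCA on either strand.
Smarca4: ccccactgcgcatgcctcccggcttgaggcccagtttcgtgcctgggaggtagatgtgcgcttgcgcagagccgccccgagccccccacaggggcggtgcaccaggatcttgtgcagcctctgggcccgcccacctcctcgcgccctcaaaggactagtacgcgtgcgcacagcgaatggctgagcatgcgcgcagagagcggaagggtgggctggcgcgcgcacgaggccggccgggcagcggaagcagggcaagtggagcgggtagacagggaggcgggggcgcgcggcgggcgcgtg
Smarca2: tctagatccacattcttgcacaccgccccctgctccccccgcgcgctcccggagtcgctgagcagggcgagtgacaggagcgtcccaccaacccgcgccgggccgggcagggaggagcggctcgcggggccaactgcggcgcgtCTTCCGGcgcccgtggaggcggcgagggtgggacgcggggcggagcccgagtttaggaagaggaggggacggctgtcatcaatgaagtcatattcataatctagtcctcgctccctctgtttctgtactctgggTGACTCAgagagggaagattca
Smarcc1: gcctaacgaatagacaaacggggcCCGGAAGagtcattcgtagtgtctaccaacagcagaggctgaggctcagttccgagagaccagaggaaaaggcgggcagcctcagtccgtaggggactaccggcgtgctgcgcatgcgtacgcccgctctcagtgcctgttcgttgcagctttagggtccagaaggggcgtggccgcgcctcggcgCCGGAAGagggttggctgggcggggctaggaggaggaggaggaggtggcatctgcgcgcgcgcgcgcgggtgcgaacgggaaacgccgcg
Smarcc2: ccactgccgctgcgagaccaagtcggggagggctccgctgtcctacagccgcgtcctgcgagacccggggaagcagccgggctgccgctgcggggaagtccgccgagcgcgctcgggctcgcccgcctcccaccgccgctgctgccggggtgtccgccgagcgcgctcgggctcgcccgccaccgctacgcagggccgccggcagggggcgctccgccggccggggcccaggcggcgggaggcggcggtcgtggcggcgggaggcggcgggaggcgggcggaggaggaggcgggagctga
Actl6a: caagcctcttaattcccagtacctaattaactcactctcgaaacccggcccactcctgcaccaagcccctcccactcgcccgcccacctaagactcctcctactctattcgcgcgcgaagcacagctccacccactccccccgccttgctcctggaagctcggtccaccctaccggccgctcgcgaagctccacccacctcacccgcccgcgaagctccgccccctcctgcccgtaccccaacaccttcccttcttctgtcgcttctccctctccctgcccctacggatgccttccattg
Smarca2 held 1 ETS match and 1 AP-1 match, Smarcc1 held 2 ETS matches and Smarcb1 held 1 AP-1 match, while the other 6 promoters, those of Smarca4, Smarcc2 and Actl6a included, held neither. ETS and AP-1 factors are known targets of the RAF and MEK pathway. Of 32851 mouse promoters of the same length, 8.86% held the ETS letters and 7.81% the AP-1 letters, so a match is a description and not a binding site. All 9 promoters held the Sp1 letters GGGCGG at least once, which 35.7% of all promoters did. These letters hold only G and C, and the 9 promoters were 55% to 81% G and C. They held 21 to 48 CpG (C followed by G), apart from 4 in Smarcd2, against a median of 7 over all promoters. Promoters of like base content were not compared.

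Total counts were 18417255 to 27257703 per library, except under CKI in Smarcb1 KO lines BS53958 (11684983 counts) and BS53965 (2884130 counts). Levels below are in CPM, which relates a gene's counts to the size of its library after TMM scaling (a trimmed mean of log ratios) over all 27 libraries. Log2 changes come from edgeR's quasi-likelihood fit and are given ± standard error (SE). A gene was called where its p, adjusted over all tested genes after Benjamini and Hochberg, was under 0.05; every group has 3 libraries. The 9 thyroid follicular markers summed to 230270 to 349040 CPM in the wildtype libraries and to at most 983 CPM in any library of a tumor line. The wildtype libraries also held markers of skeletal muscle (1567 to 3340 CPM) and C cells (2413 to 4269 CPM), although their source label is that of the tumor lines. Line AB52980 (Arid2 KO) held skeletal muscle markers at 2056 CPM under CKI and 194 CPM in vehicle, against at most 13.5 CPM in any other tumor line library.

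**Figure D1:**
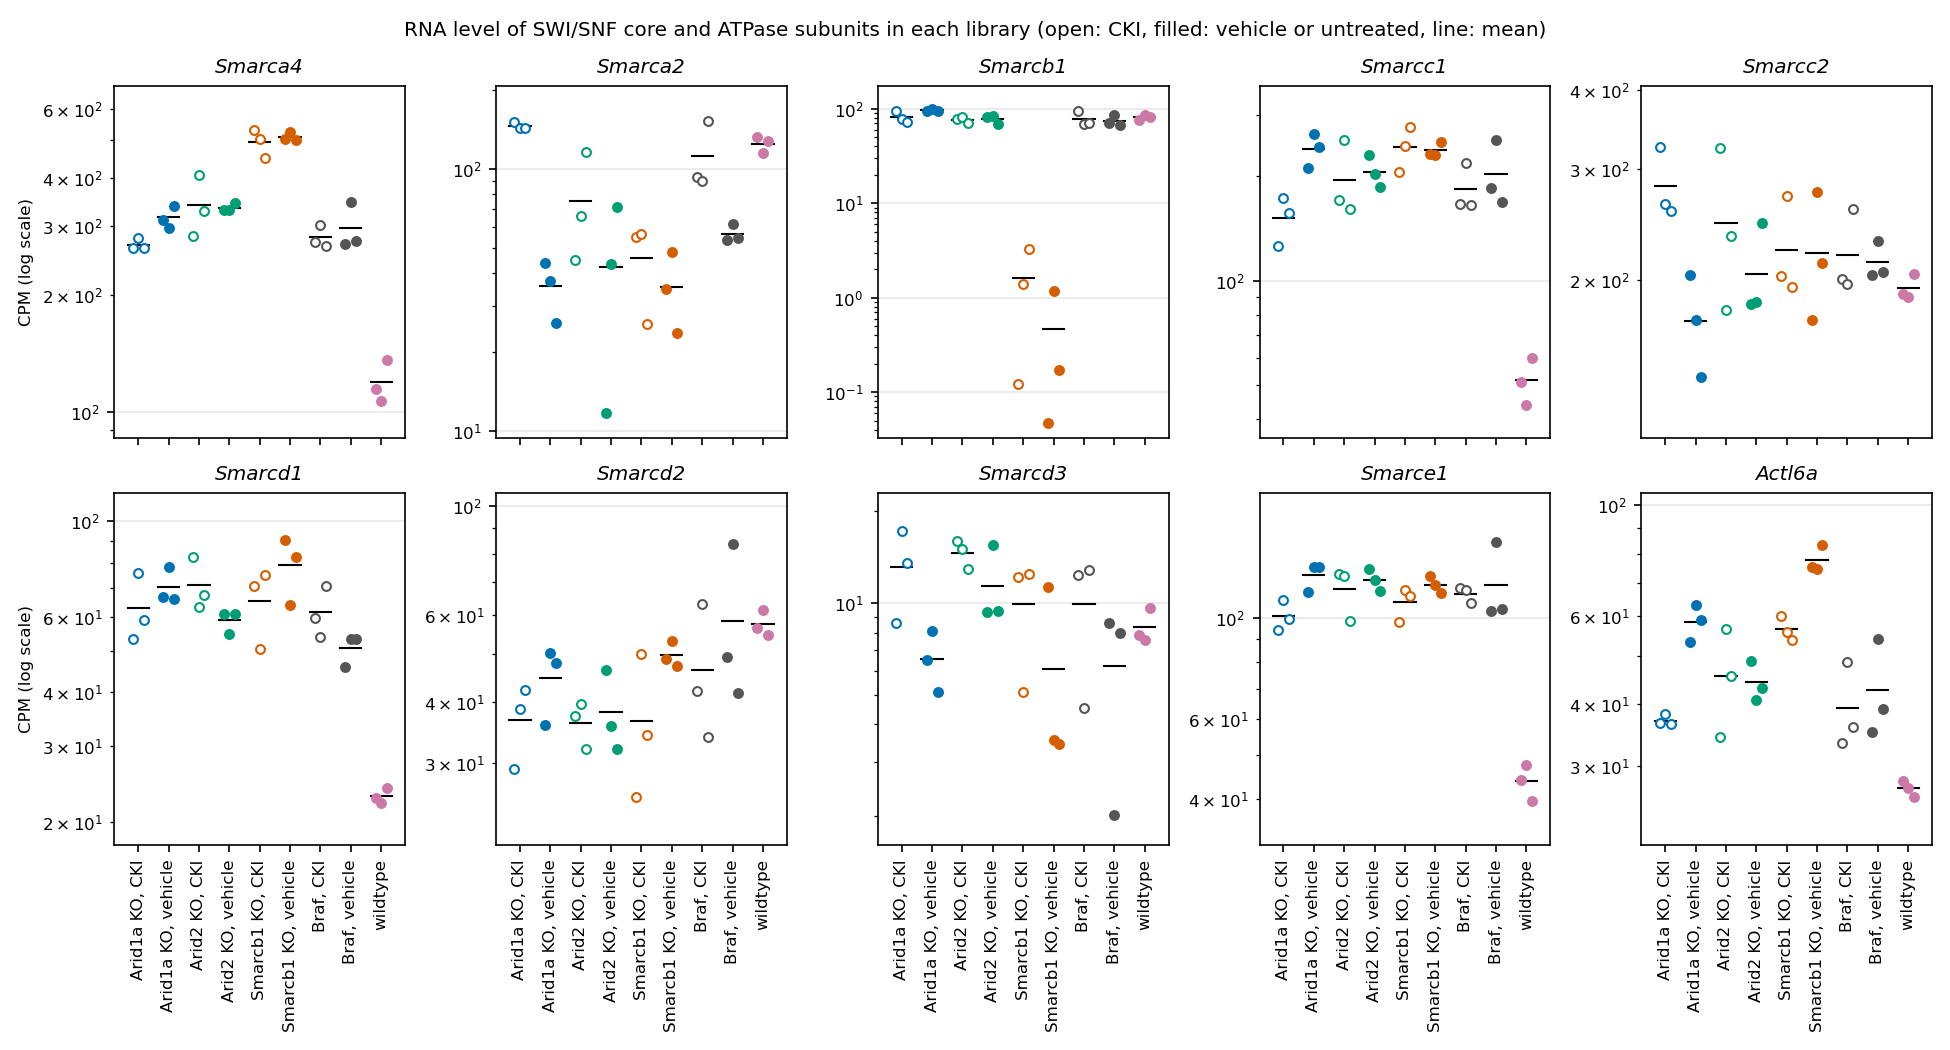
RNA level of each of the 10 subunits in all 27 libraries, in CPM on a log axis, with a panel per gene and a point per library; open points are CKI, filled points are vehicle or untreated, and black lines are group means of 3 libraries. Smarca4 sits at 448 to 529 CPM in the 6 Smarcb1 KO libraries, above every other library, and Smarca2 is higher under CKI than in vehicle in the Arid1a KO lines.

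The labels were first checked against the deleted genes. Smarcb1, the core subunit that grips the nucleosome's acidic patch, had 0.123, 1.40 and 3.27 CPM in the Smarcb1 KO libraries under CKI, against 93.9, 68.3 and 70.0 CPM in Braf libraries under CKI. In vehicle it had 0.0475, 1.16 and 0.172 CPM in Smarcb1 KO libraries, against 71.6, 85.1 and 67.9 CPM in Braf libraries. Its log2 change was -7.34 ± 0.86 in vehicle (adjusted p = 7.72e-05) and -5.95 ± 0.83 under CKI (adjusted p = 0.000238). The residual reads were few: 3, 17 and 11 counts under CKI and 1, 24 and 4 counts in vehicle. The largest share of the Braf mean, 4.22%, was in the CKI library of line BS53965, the shallowest one, where the exact Poisson 95% interval of the level was 1.63 to 5.85 CPM (counting error only). Arid1a fell by 0.71 in Arid1a KO lines in vehicle (adjusted p = 0.0325), to 96.1, 69.6 and 76.0 CPM, against 129, 132 and 136 CPM in Braf lines. Under CKI it had 62.7, 73.6 and 87.5 CPM in Arid1a KO lines, against 123, 118 and 139 CPM in Braf lines. These groups did not overlap, but Arid1a was not called under CKI. Arid2 had 106, 78.2 and 97.8 CPM in Arid2 KO lines in vehicle, against 87.9, 108 and 96.5 CPM in Braf lines, and did not pass the test (adjusted p = 0.968). The deleted parts of Arid1a and Arid2 are not given in the labels. The gene count of Arid2 therefore does not check its lines, and Arid1a reads remained in every Arid1a KO library.

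Per kilobase of exon, the subunits differed widely in the Braf vehicle libraries. Smarca4 averaged 46.6 ± 6.69 CPM per kilobase, Smarcb1 45.1 ± 5.46, Smarcc2 41.5 ± 2.89 and Smarce1 40.6 ± 8.56 (SD, n = 3 lines), and these 4 differed by less than their summed SDs. Smarcc1 followed at 31.3 ± 7.02, Actl6a at 21.3 ± 4.97, Smarcd2 at 19.2 ± 7.36 and Smarcd1 at 15.3 ± 1.28. The lowest were Smarca2, the second ATPase, at 7.73 ± 0.588, and Smarcd3, the SMARCD form known from heart and muscle, at 3.19 ± 1.87. Neighbors in this order differed by less than their summed SDs, apart from the step from Smarcd1 to Smarca2 and that from Smarca2 to Smarcd3.

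In vehicle, 3 of the other 9 subunits were higher in Smarcb1 KO lines than in Braf lines, and none was lower. These were the ATPase Smarca4, the ATPase-bound Actl6a and the core subunit Smarcd1. Smarca4 had 502, 525 and 499 CPM in Smarcb1 KO lines, against 271, 346 and 274 CPM in Braf lines. Every Smarcb1 KO library lay above every Braf library, and the mean was 1.71 times that of Braf. The log2 change was 0.77 ± 0.13, with a 95% interval of 0.49 to 1.05 (adjusted p = 0.00141). Of all genes tested in this comparison, 6.93% were called higher and 11.2% lower, 18.1% in all. In bulk RNA such as this, fewer cells of a type and less RNA per cell cannot be told apart.

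Actl6a, the actin-related protein of the ATPase module, had 75.3, 74.5 and 83.3 CPM in Smarcb1 KO lines, against 35.2, 54.1 and 39.0 CPM in Braf lines. The groups did not overlap, and the log2 change was 0.85 ± 0.18 (95% interval 0.47 to 1.24, adjusted p = 0.00488). Smarcd1, known to bridge the complex to transcription factors, had 90.5, 63.9 and 82.4 CPM in Smarcb1 KO lines, against 45.9, 53.1 and 53.3 CPM in Braf lines. These groups did not overlap either, with a log2 change of 0.63 ± 0.17 (95% interval 0.26 to 0.99, adjusted p = 0.0202). The 20 proliferation genes (such as Mki67, Top2a and the MCM helicase genes) summed to 3624 to 4074 CPM in Smarcb1 KO lines and to 1773 to 2580 CPM in Braf lines in vehicle, with 1 of 20 called higher. Endothelial markers summed to 0.243 to 666 CPM in Smarcb1 KO lines and to 1.24 to 3.20 CPM in Braf lines in vehicle, ranges that overlap. Of these markers 2 of 5 were called higher, while the median log2 change of the list was -1.18. Of the fibroblast markers 1 of 5 was called lower (median -4.07). The part of these lists in the higher Smarca4, Actl6a and Smarcd1 was not tested; Smarca4 was called in 13 of 14 alternatives, also without each Smarcb1 KO line in turn. The Smarcd1 call did not hold without Braf line B47275 (adjusted p = 0.0757) or without Smarcb1 KO line BS53736 (0.0736) or BS53965 (0.0596), and that of Actl6a did not hold without lines BS53958 and BS53965 together (0.115). With only the Smarcb1 KO and Braf vehicle libraries in the fit, the adjusted p was 0.0567 for Smarca4, 0.0719 for Actl6a and 0.115 for Smarcd1.

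The remaining subunits did not pass the test in vehicle. Smarcc1 and Smarcc2, the scaffold pair on which the core assembles, had log2 changes of 0.22 (95% interval -0.18 to 0.63) and 0.04 (-0.44 to 0.52). Smarce1, the HMG-box subunit, had 124, 118 and 114 CPM in Smarcb1 KO lines, against 104, 147 and 105 CPM in Braf lines, a log2 change of -0.01 (-0.29 to 0.28). Smarcd2 and Smarcd3, the paralogs of Smarcd1, stood at -0.24 (-0.83 to 0.36) and -0.04 (-1.19 to 1.10). Smarca2, the paralog of Smarca4, had 34.7, 48.2 and 23.6 CPM in Smarcb1 KO lines, against 53.3, 61.3 and 54.6 CPM in Braf lines. All 3 lay below the Braf libraries, yet the log2 change of -0.67 ± 0.48 did not pass the test (adjusted p = 0.342).

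Under CKI the comparison of Smarcb1 KO with Braf lines gave Smarca4 and Actl6a as higher, 2 of the other 9, where 10.1% of all genes were called higher, 13.1% lower and 23.1% in either direction. Smarca4 had 529, 501 and 448 CPM in Smarcb1 KO lines, against 274, 302 and 267 CPM in Braf lines. Again no library overlapped, and the log2 change was 0.80 ± 0.13 (95% interval 0.52 to 1.08, adjusted p = 0.00106). Smarca4 was called in 13 of 14 alternatives, the exception being the fit of the compared groups alone (adjusted p = 0.0629). Actl6a had 60.0, 55.8 and 53.8 CPM in Smarcb1 KO lines, against 33.4, 48.5 and 36.1 CPM in Braf lines. Its log2 change was 0.52 ± 0.18 (adjusted p = 0.0475), and it was called in 6 of 14 alternatives, with adjusted p of 0.166 without Braf line B47275, 0.157 without B52482, and 0.118, 0.105 and 0.0800 without Smarcb1 KO lines BS53736, BS53958 and BS53965. The proliferation genes summed to 1510 to 4233 CPM in Smarcb1 KO lines and 788 to 1062 CPM in Braf lines under CKI, with 12 of 20 called higher (median 1.44). Of the markers tested, 2 of 6 thyroid follicular and 2 of 5 fibroblast markers were called lower and 1 of 2 neural markers higher. The part of these lists in the higher Smarca4 and Actl6a was not tested. Smarcd1 had a log2 change of 0.08 (95% interval -0.29 to 0.44, adjusted p = 0.779) under CKI.

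Smarca2 under CKI had 54.8, 56.2 and 25.5 CPM in Smarcb1 KO lines, against 93.3, 89.5 and 151 CPM in Braf lines. The groups did not overlap, and the log2 change was -1.30 ± 0.48 (95% interval -2.31 to -0.28). Its adjusted p was 0.0595, so it was not called. It was called in 2 of 14 alternatives, with DESeq2 (0.0317) and with all 27 libraries in the fit (0.0452). Over the alternatives the adjusted p reached 0.407.

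**Figure D2:**
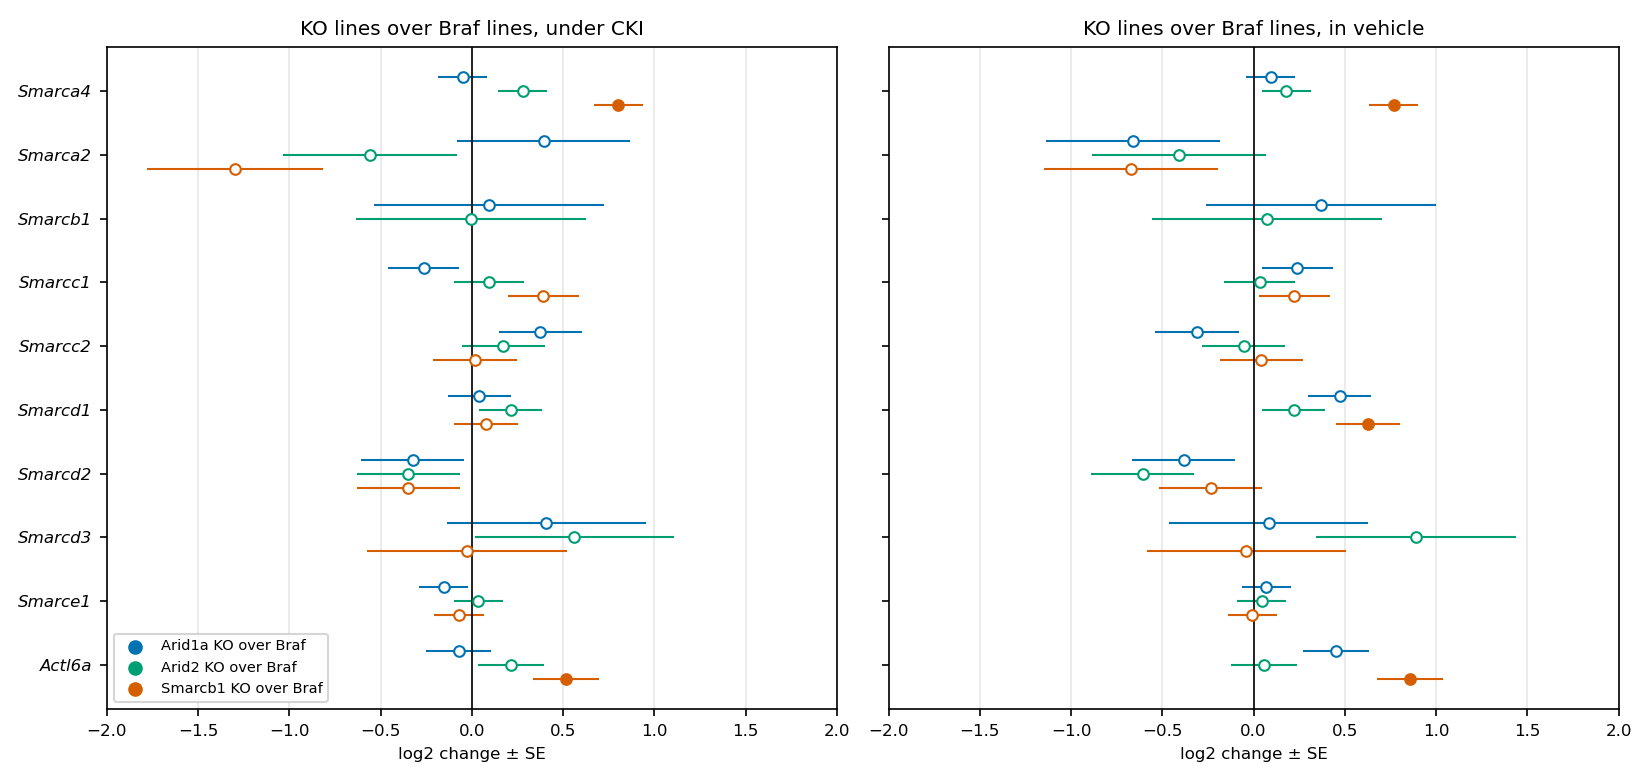
Log2 change ± SE of each subunit in KO lines over Braf lines, under CKI (left) and in vehicle (right), with the Arid1a, Arid2 and Smarcb1 KO in separate colors and filled points where the adjusted p was under 0.05; Smarcb1 in Smarcb1 KO lines is left out. Filled points are Smarca4 (0.80 and 0.77) and Actl6a (0.52 and 0.85) in both panels and Smarcd1 (0.63) in vehicle, all in Smarcb1 KO lines.

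In Arid1a KO and Arid2 KO lines none of the 10 subunits was called against Braf lines, in vehicle or under CKI, by edgeR or by DESeq2. These comparisons and that of Smarcb1 KO lines share the Braf libraries. In Arid1a KO lines in vehicle, 3.63% of all genes were called; 2 of 10 members had an unadjusted p under 0.05, as did 19.5% of all genes. Smarcd1 had 66.6, 78.4 and 66.0 CPM in Arid1a KO lines, above the 45.9, 53.1 and 53.3 CPM in Braf lines, with a log2 change of 0.47 ± 0.17 (95% interval 0.11 to 0.84, adjusted p = 0.133). Actl6a had 53.2, 63.3 and 58.8 CPM in Arid1a KO lines, against 35.2, 54.1 and 39.0 CPM in Braf lines, a log2 change of 0.45 ± 0.18 (adjusted p = 0.168), with overlap of 1 library. Fibroblast markers summed to 588 to 2194 CPM in Arid1a KO lines and to 4.33 to 95.9 CPM in Braf lines in vehicle. Of these markers 1 of 5 was called higher and 0 lower (median 5.37), while 0 of 20 proliferation genes were called. Their part was not tested. Smarca4 differed by 0.09 (95% interval -0.19 to 0.37), and Smarca2 by -0.66 (-1.66 to 0.34). The interval of Smarca4 ends below the 0.77 of Smarcb1 KO lines, but the difference between those KO lines was not tested.

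In Arid2 KO lines in vehicle, 0.0512% of all genes were called; 1 of 10 members had an unadjusted p under 0.05, as did 12.4% of all genes. That member was Smarcd2, the SMARCD form known from blood cells, with 46.5, 35.6 and 32.0 CPM in Arid2 KO lines, against 49.4, 83.6 and 41.7 CPM in Braf lines. Its log2 change was -0.61 ± 0.28 (adjusted p = 0.390), with overlap between the groups. Smarcd3 had 9.38, 15.5 and 9.39 CPM in Arid2 KO lines, above the 8.57, 2.01 and 8.00 CPM in Braf lines. Its log2 change was 0.89 ± 0.55 in vehicle (adjusted p = 0.558) and 0.56 ± 0.54 under CKI (adjusted p = 0.792), where the groups did not overlap either. Smarcd1 also lay above the Braf libraries in vehicle, at 0.22 ± 0.17 (adjusted p = 0.682). Smarca2 ranged from 11.8 to 71.6 CPM over the 3 Arid2 KO lines, wider than the 53.3 to 61.3 CPM of the Braf lines. Under CKI, 0.736% of all genes were called in Arid1a KO lines and 0.064% in Arid2 KO lines. No member had an unadjusted p under 0.05 there, against 14.6% of all genes in Arid1a KO lines and 10.5% in Arid2 KO lines. Smarca4 under CKI had a log2 change of -0.05 (-0.33 to 0.23) in Arid1a KO lines and of 0.28 (0.00 to 0.56, adjusted p = 0.482) in Arid2 KO lines.

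Under CKI, the clearest difference among the 10 was in Smarca2. It was higher under CKI than in vehicle in 12 of 12 lines, by 0.11 to 2.44 on the log2 scale, with a median of 0.74 (pseudocount 0.5 CPM). Averaged over the 4 genotypes, Smarca2 was higher by 1.06 ± 0.24 (95% interval 0.56 to 1.56, adjusted p = 0.0043), and it was called in 20 of 20 alternatives, at 0.97 to 1.13. Actl6a was lower by -0.29 ± 0.09 (adjusted p = 0.0232), in 10 of 12 lines, and was called in 14 of 20 alternatives. Its adjusted p was 0.0788 under total counts, 0.0565 to 0.0715 without line BA47473, BA49112, AB51189 or BS53965, and 0.150 without BS53958 and BS53965 together. In this average, 13.6% of all genes were called higher, 13.6% lower and 27.2% in either direction, so 2 of 10 members is not above the share of all genes. Of the proliferation genes 14 of 20 were called lower (median -0.83), and 2 of 6 thyroid follicular, 2 of 5 fibroblast and 1 of 2 leukocyte markers tested were called higher; their part was not tested. Vehicle and CKI libraries come from the same line, and with the line as a replicate block 6 members were called, where 42.9% of all genes were. The block gave Smarca2 at 1.11 ± 0.13 (adjusted p = 0.000217), Smarcd3 at 0.74 ± 0.16 (0.00485), Smarcc2 at 0.26 ± 0.09 (0.0370), Actl6a at -0.30 ± 0.08 (0.0124), Smarcd2 at -0.28 ± 0.08 (0.0139) and Smarcc1 at -0.21 ± 0.07 (0.0314).

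By genotype, Smarca2 had 151, 143 and 143 CPM under CKI in Arid1a KO lines, against 43.6, 37.5 and 25.9 CPM in vehicle. The groups did not overlap, the mean under CKI was 4.08 times that in vehicle, and the log2 change was 2.04 ± 0.49 (95% interval 1.01 to 3.08, adjusted p = 0.0129). In Braf lines it had 93.3, 89.5 and 151 CPM under CKI, against 53.3, 61.3 and 54.6 CPM in vehicle. These did not overlap either, but the change of 0.99 ± 0.48 did not pass the test (adjusted p = 0.456, or 0.0824 with the line as a block). In Arid2 KO lines it had 44.8, 65.8 and 115 CPM under CKI, against 11.8, 43.5 and 71.6 CPM in vehicle. The lines kept their order and the groups overlapped. The change of 0.84 ± 0.48 did not pass the test (adjusted p = 0.457), while the block gave 1.06 ± 0.27 (adjusted p = 0.0447), where 6.27% of all genes were called. In Smarcb1 KO lines it had 54.8, 56.2 and 25.5 CPM under CKI, against 34.7, 48.2 and 23.6 CPM in vehicle, a change of 0.37 ± 0.48 (95% interval -0.64 to 1.37, adjusted p = 0.917).

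**Figure D3:**
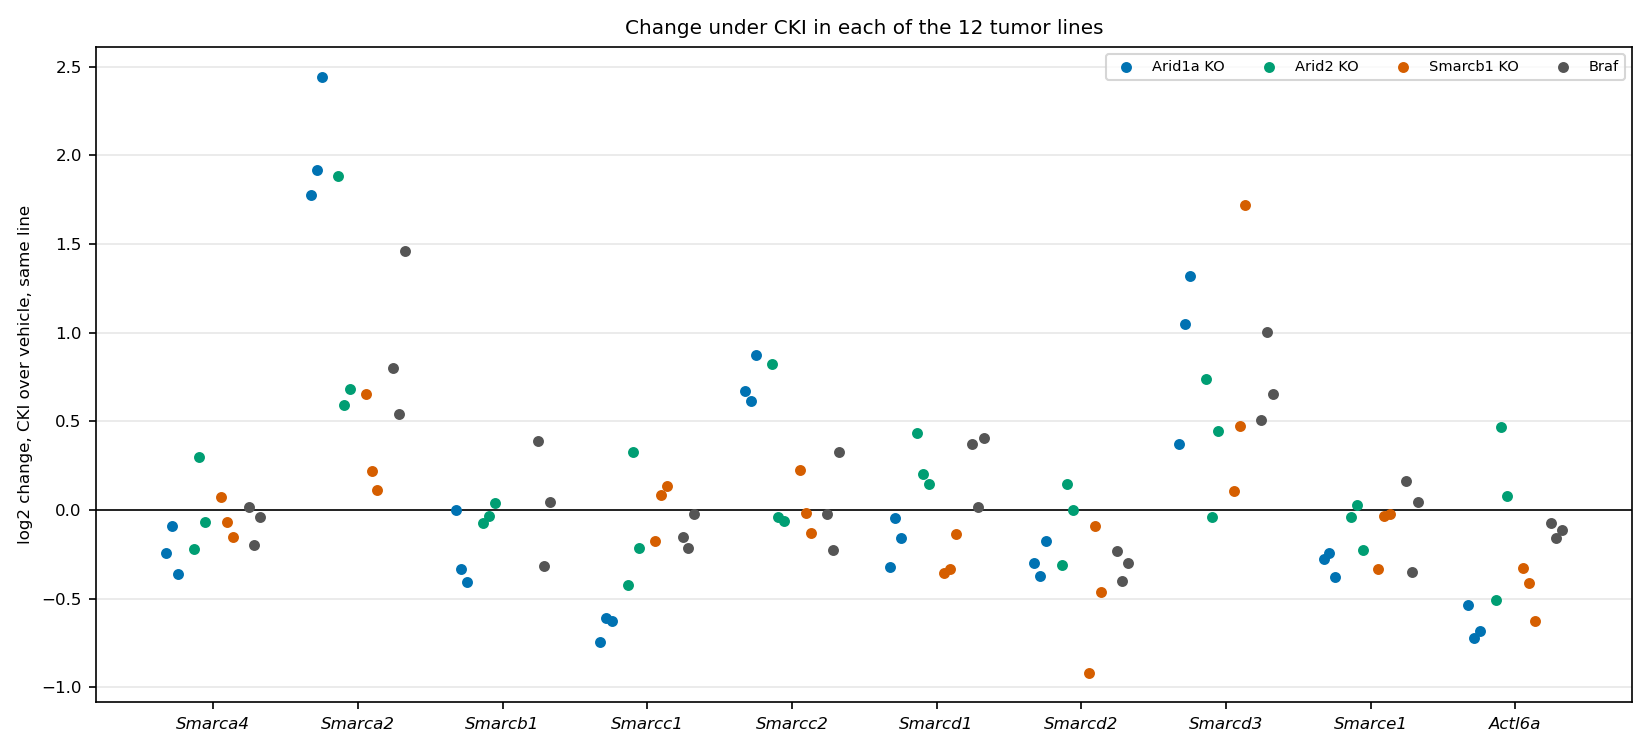
Log2 change under CKI over vehicle within each of the 12 tumor lines (pseudocount 0.5 CPM), for each subunit and genotype; each point is a line, and Smarcb1 in its own KO lines is left out. All 12 points of Smarca2 lie above 0, at 0.11 to 2.44, with the 3 Arid1a KO lines among the highest.

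In Arid1a KO lines, 4 of 10 members were called under CKI, 2 higher and 2 lower, where 7.08% of all genes were called higher, 6.84% lower and 13.9% in either direction. Besides Smarca2, the scaffold pair moved in opposite directions. Smarcc2 had 325, 264 and 257 CPM under CKI, against 203, 172 and 140.0 CPM in vehicle, a change of 0.73 ± 0.23 (adjusted p = 0.0426). Smarcc1 had 126, 173 and 157 CPM under CKI, against 211, 264 and 242 CPM in vehicle, a change of -0.64 ± 0.20 (adjusted p = 0.0377). In neither gene did the CKI and vehicle libraries overlap. Actl6a had 36.6, 38.1 and 36.4 CPM under CKI, against 53.2, 63.3 and 58.8 CPM in vehicle, without overlap, a change of -0.64 ± 0.18 (adjusted p = 0.0269). Proliferation genes summed to 490 to 1445 CPM under CKI and 1994 to 2712 CPM in vehicle in these lines, with 3 of 20 called lower, and their part was not tested. Thyroid follicular markers summed to 345 to 773 CPM under CKI and 71.5 to 199.6 CPM in vehicle, ranges that do not overlap, with 2 of the 6 tested called higher (median 2.03). Fibroblast markers summed to 827 to 1984 CPM under CKI and 588 to 2194 CPM in vehicle, ranges that overlap. Of these markers 1 of 5 was called higher, while the median log2 change of the list was -0.40. The part of these markers was not tested either. With the line as a block 5 of 10 members were called, where 32.3% of all genes were. All 4 calls were lost when any of the 3 Arid1a KO lines was left out, with Smarca2 at adjusted p of 0.0663 without BA45198, 0.0915 without BA47473 and 0.127 without BA49112.

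In Braf lines 0 of 10 members and 0% of all genes were called under CKI by edgeR without the block; 0 members and 11.2% of all genes (1744) had an unadjusted p under 0.05, and DESeq2 called 0 members and 316 genes. With the line as a block, edgeR called 2.48% of all genes in Braf lines (388) and again 0 members. In that fit Smarca2 (0.00455), Smarcd3 (0.0337) and Smarcd1 (0.0419) had an unadjusted p under 0.05, with adjusted p of 0.0824 to 0.215. In Arid2 KO lines no member was called by edgeR without the block, against 0.141% of all genes, or by DESeq2. Without the block, 0 members had an unadjusted p under 0.05 there, against 13.6% of all genes. With the block, Smarca2 (0.00239) and Smarcd1 (0.0466) had one. In Smarcb1 KO lines no member was called by either tool. Without the block, edgeR called 0.032% of all genes there, and 1 of 10 members had an unadjusted p under 0.05, as did 8.53% of all genes. That one was Actl6a, with 60.0, 55.8 and 53.8 CPM under CKI and 75.3, 74.5 and 83.3 CPM in vehicle in Smarcb1 KO lines, a change of -0.45 ± 0.18 (adjusted p = 0.449) without overlap. The block called 1.06% of all genes and no member in these lines. Its unadjusted p was under 0.05 for Smarcd2 (0.00908), Actl6a (0.0156), the deleted Smarcb1 (0.0200), Smarcd3 (0.0373) and Smarcd1 (0.0424). Smarcd3 was higher under CKI in 11 of 12 lines, with changes of -0.04 to 1.72 on the log2 scale, and Smarcd2 was lower in 11 of 12, with changes of -0.92 to 0.15. Line AB52980 was 1 of 2 lines, with AB55694, in which Actl6a was higher under CKI (56.5 CPM under CKI, 40.7 CPM in vehicle). In that line the proliferation genes were also higher, at 2791 CPM under CKI and 1624 CPM in vehicle, whose part was not tested. Smarca4 and Smarce1 were each lower in 9 of 12 lines, with average changes of -0.08 (-0.22 to 0.06) and -0.13 (-0.28 to 0.01).

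The tests of whether the CKI response differed from that of Braf lines called no member in Arid1a KO, Arid2 KO or Smarcb1 KO lines, by edgeR or DESeq2. Over all genes edgeR without the block called 0% in each, with 5.12%, 0.793% and 4.22% of all genes (801, 124 and 659) at an unadjusted p under 0.05, and DESeq2 called 37, 7 and 43 genes. With the line as a block, edgeR called 0.147%, 0% and 0.032% of all genes, and no member. For Smarca2 the response in Arid1a KO lines minus that in Braf lines was 1.05 ± 0.67 (95% interval -0.36 to 2.47), and in Smarcb1 KO lines it was -0.62 ± 0.67 (-2.04 to 0.79). Without the block, 1 of the members had an unadjusted p under 0.05 in Arid1a KO lines, Smarcc2 at 0.69 ± 0.32 (0.01 to 1.36, adjusted p = 0.968). With the block, Smarca2, Smarcc2, Smarcc1, Smarcd1 and Actl6a had one there (0.0117 to 0.0364), with adjusted p of 0.268 to 0.366. In Smarcb1 KO lines without the block it was Smarcd1, at -0.55 ± 0.25 (-1.07 to -0.04, adjusted p of 1). With the block, Smarcd1 (0.00781) and the deleted Smarcb1 (0.0415) had one there, with adjusted p of 0.383 and 0.531. In Arid2 KO lines there was none, and Smarca2 stood at -0.15 ± 0.67. With the line as a block, the Smarca2 difference between Arid1a KO and Braf lines was 1.13 ± 0.37 (unadjusted p = 0.0117, adjusted p = 0.268). Neither fit called a larger Smarca2 response in Arid1a KO lines than in Braf lines, so it was not shown.

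The balance of the ATPases was described as the share of Smarca2 in the sum of Smarca2 and Smarca4, in CPM per kilobase. It was 32.1 ± 1.23% under CKI and 9.01 ± 2.45% in vehicle in Arid1a KO lines (SD, n = 3). In Arid2 KO lines it ranged from 12.1% to 23.5% under CKI and from 3.02% to 15.4% in vehicle. In Smarcb1 KO lines, where Smarca4 was called against Braf lines and Smarca2 was not, it was 7.32 ± 2.26% under CKI and 5.69 ± 1.73% in vehicle. In Braf lines it was 25.5 ± 6.68% under CKI and 14.3 ± 0.785% in vehicle, and in the wildtype libraries it was 47.8 ± 2.60%. Both ATPases together gave 84.6 ± 3.85 CPM per kilobase in Smarcb1 KO lines and 54.3 ± 7.27 CPM per kilobase in Braf lines in vehicle. For the scaffold pair, the share of Smarcc2 was 69.9 ± 5.74% under CKI and 47.4 ± 6.63% in vehicle in Arid1a KO lines, 57.4 ± 3.72% in Braf lines in vehicle and 82.6 ± 1.63% in wildtype.

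**Figure D4:**
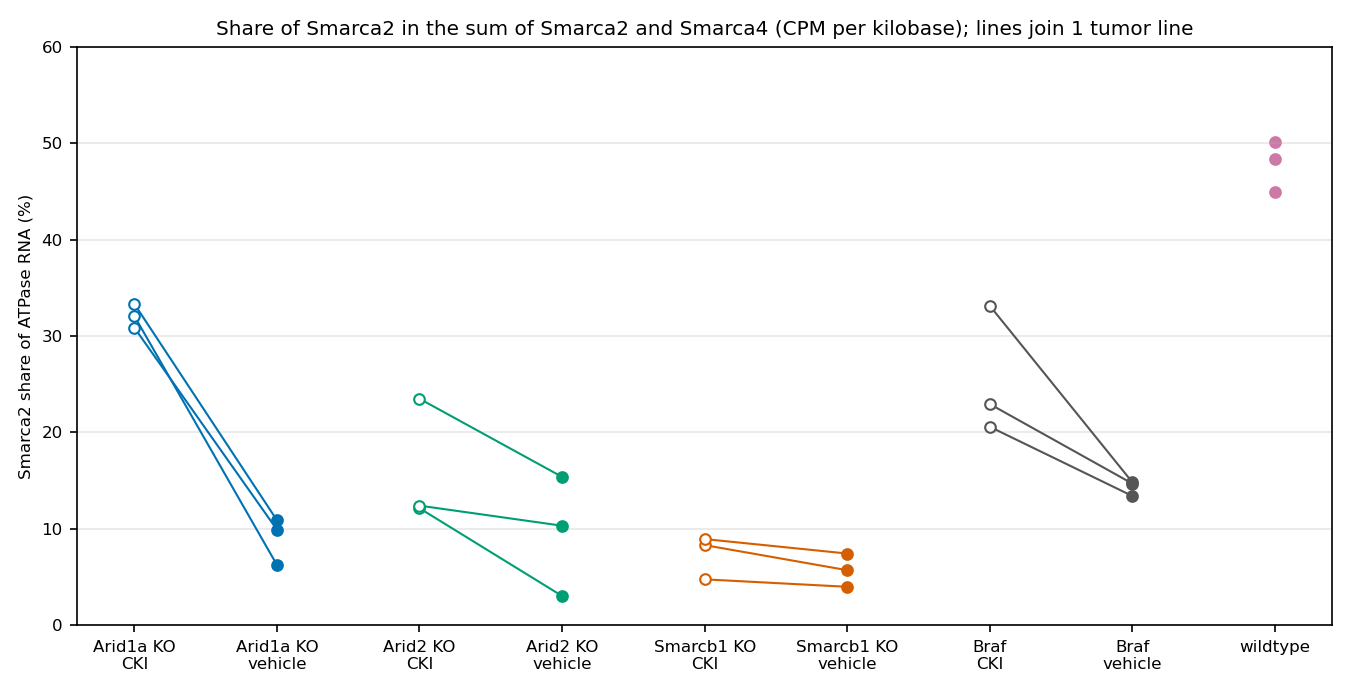
Share of Smarca2 in the summed RNA of Smarca2 and Smarca4 (CPM per kilobase, in percent) in each library, with open points for CKI, filled points for vehicle or untreated, and a line joining both libraries of a tumor line. Every line has a higher share under CKI; the Arid1a KO lines average 32.1% under CKI and 9.01% in vehicle, and the wildtype libraries 47.8%.

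Against the wildtype libraries, 6 of 10 members were called in Braf vehicle lines, 5 higher and 1 lower, where 23.7% of all genes were called higher, 22.8% lower and 46.5% in either direction. Smarcc1 had 185, 254 and 168 CPM in Braf vehicle lines, against 51.2, 44.0 and 60.2 CPM in wildtype libraries, a change of 1.97 ± 0.20 (adjusted p = 8.5e-07). Smarce1 had 104, 147 and 105 CPM in Braf vehicle lines, against 44.1, 47.6 and 39.7 CPM in wildtype, a change of 1.44 ± 0.14 (adjusted p = 3.35e-07). Smarca4 had 271, 346 and 274 CPM in Braf vehicle lines, against 115, 107 and 136 CPM in wildtype, a change of 1.32 ± 0.14 (adjusted p = 8.92e-07). None of these groups overlapped. Smarcd1 differed by 1.15 ± 0.17 and Actl6a by 0.66 ± 0.18 (adjusted p = 3.43e-05 and 0.00491). Smarca2 went the other way, with 53.3, 61.3 and 54.6 CPM in Braf vehicle lines, against 132, 114 and 127 CPM in wildtype. Its change was -1.14 ± 0.45 (adjusted p = 0.0448), and it was called in 4 of 12 alternatives, at adjusted p of 0.0610 to 0.114 without any one of the 6 libraries or lines. The remaining members did not pass the test: Smarcc2 differed by 0.14 (-0.30 to 0.58), Smarcd2 by 0.02 (-0.54 to 0.57) and Smarcd3 by -0.43 (-1.53 to 0.66), and Smarcb1 by -0.12 (-1.34 to 1.11). All 20 proliferation genes were called higher in Braf vehicle lines (median 4.83), while 7 of 9 thyroid follicular, 6 of 6 skeletal muscle and 3 of 3 C cell markers were called lower. The kind of sample cannot be told apart from the genotype in this comparison.

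Among the other listed SWI/SNF subunits, 18 of 19 were in the table. Of the 16 tested, 2 were higher and 0 lower in Smarcb1 KO lines in vehicle, with a median log2 change of 0.20, against -0.02 for all genes, of which 18.1% were called. These were Arid1a, the signature subunit of the canonical BAF complex, at 1.10 ± 0.18 (adjusted p = 0.000737), and Dpf1, a PHD-finger subunit known from neurons, at 2.73 ± 0.74 (0.0182). Under CKI the same 2 genes were called, Arid1a at 1.30 and Dpf1 at 2.47. Of 19 ATPases of other remodelers, 3 were higher and 1 lower in vehicle: Ep400 at 1.03, Chd1 at 0.60 and Ino80 at 0.45, and Chd4, the ATPase of NuRD, at -0.63. Under CKI 2 were higher, Ino80 and Chd1 at 0.50 each, and 1 lower, Chd4 at -0.83. In Arid1a KO lines in vehicle 1 of the 16 subunits, the deleted Arid1a itself, was called lower, and no remodeler ATPase was called by edgeR (DESeq2 called 1, and 3 had an unadjusted p under 0.05). Its paralog Arid1b stood at 0.53 ± 0.28 (adjusted p = 0.307). In Arid2 KO lines edgeR called none of either list, with 0 subunits and 2 ATPases at an unadjusted p under 0.05 in vehicle and 0 and 1 under CKI, and DESeq2 called 1 ATPase in vehicle and none of either list under CKI.

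Under CKI, 2 of the 16 other subunits were higher and 2 lower in the average of 4 genotypes: Arid1b at 0.44 and Actb at 0.40, and Pbrm1, the PBAF subunit, at -0.38 and Bcl7c at -0.51. Of the 19 other ATPases 5 were higher and 2 lower. Of all genes 27.2% were called in that average, so the subunit count is near that share. The lower ones were Hells, a helicase of dividing cells, at -1.08, and Ep400 at -0.66, while Chd2 at 0.35 and Srcap at 0.18 were among the higher ones. In Arid1a KO lines alone, where 13.9% of all genes were called, the calls were Pbrm1 at -0.50, Smarca5 at -0.49 and Hells at -1.55. In Braf vehicle lines over wildtype, 5 of 17 other subunits were higher and 3 lower, and 10 of 19 other ATPases were higher and 2 lower, with Hells at 4.30, where 46.5% of all genes were called.

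The closest pattern of each member other than Smarcd1 over the 24 tumor line libraries was described by Pearson's r of log2 CPM among 10291 genes; the libraries share lines, so r has no p. Smarca2 was most like Pex13 (0.897) and Galt (0.888), and Smarca4 most like Gcat (0.919) and Pitrm1 (0.916). Smarcb1 was most like Efnb2 (0.969) and Tagln2 (0.959), and its pattern is set by its absence from 6 libraries. Smarca4 was highest in the same 6 libraries, with r of -0.871 to Smarcb1, and Actl6a had r of -0.692 to Smarcb1. Likeness within a genotype was not computed. Actl6a was nearest to Nup160 (0.905) and Fam133b (0.886), Smarcc1 to Naa38 (0.898) and Rbmxrt (0.896), and Smarcd2 to Dcbld1 (0.889) and Slc35c1 (0.866). Smarcd3 came closest to Antxr1 (0.876) and Nkx2-1 (0.826), and Smarce1 to Vasp (0.820) and Prcc (0.759). Smarcc2 was most like Acadm (0.764) and Cry2 (0.761).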

How the data were processed

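Raw counts per gene symbol for 33924 symbols were deposited by the authors, with 1 column for each of 27 libraries. Per the labels, the kits were TRIzol for RNA and TruSeq for the libraries. The submitters' processing notes name mm9, STAR 2.4, HTSeq 0.6.1 and DESeq2 without their roles; the annotation and strand setting were not given in those sources. The 10 members and the lists of other subunits, other ATPases, proliferation genes and markers were chosen with earlier results of these data known. The text gives all 10 members, up to 4 called genes of each other list, the deleted genes, and the 2 genes most like each member, except for Smarcd1, whose likeness is not reported here.

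The analysis used edgeR 4.0.16 in R 4.3.3: filterByExpr by group, TMM scaling, 1 mean per group and the quasi-likelihood F test, with Benjamini-Hochberg adjustment over all genes. The 24 tumor line libraries shared 1 fit (15634 genes, 16 residual degrees of freedom), and wildtype libraries entered only the comparison with Braf vehicle, in a fit of all 27 (16821 genes). All 10 members passed the filter in both. CPM levels were scaled over all 27 libraries, so they can differ slightly from the log2 changes of the tumor lines. Standard errors and 95% intervals are approximate, since they follow from the F value. The SE of Smarcb1 in lines without its KO includes the spread of the KO libraries. Exon lengths per kilobase came from GENCODE M21 (GRCm38), another build than that of the counts. The edgeR fit was run on simulated counts with planted changes, the same spread for every gene and no line effects. Such counts check the code and cannot show how the fits do on these paired lines. Replicates of a group differed by more than sampling noise. Vehicle and CKI libraries pair by line: deviations from group means correlated at 0.259 to 0.773 in all 12 lines, and the block fit had 8 residual degrees of freedom. Its p-values measure the spread of the change within lines. The shared fit of 24 libraries ignored the pairing, also where KO lines were compared with Braf lines. Both libraries of a line entered its spread there. The alternatives were RLE and total-count scaling, DESeq2 1.42.0, 2 other filters, other sets of libraries in the fit, each line left out, and the block.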

Additional observations from a re-analysis of the deposited data

How the results depend on the processing

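Over 15 comparisons, no called change of a member reversed its direction. Single members lost their call in 46 cases, gained one in 13 and kept both direction and call in 1812; in 129 more, a change that was not called took the other sign and stayed uncalled. With a fit of the compared groups alone, 1 member was called in Smarcb1 KO against Braf lines in vehicle instead of 4, and 1 instead of 3 under CKI; fewer libraries estimate the spread there. For CKI in Arid1a KO lines, 1 member was called without the filter instead of 4, and 0 without any one of the 3 lines. For the average CKI response, 1 to 3 members were called with a line left out, and 1 instead of 2 without Smarcb1 KO lines BS53958 and BS53965, whose CKI libraries are shallow. The replicate block called 1 member in Arid2 KO lines instead of 0, and 6 in the average instead of 2, and added Smarcd3 in Arid1a KO lines (0.98, adjusted p = 0.0400), where it called 32.3% of all genes; it changed no other call of a member. The causes of these losses and gains were not tested. Against wildtype, the median of all genes moved from 0.02 under TMM to -0.14 under RLE and 0.19 under total counts.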
